A study of Homo sapiens with 12 samples.

Results

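The 236 FOXA2 peaks described here were called by chromatin immunoprecipitation followed by sequencing (ChIP-seq) in the colorectal adenocarcinoma line SW480 and overlapped, by at least 1 bp, a FOXA2 peak called in the line SW620. They make up 4.53% (4.00 to 5.13) of the 5207 SW480 FOXA2 peaks, and their 236 SW620 partners make up 1.91% (1.68 to 2.16) of the 12372 SW620 peaks. Intervals in parentheses are 95% Wilson intervals, which cover counting error only and treat neighbouring peaks as independent. The members were chosen by the FOXA2 peak calls of both lines. The number of shared peaks, their list positions and their spacing come from those same calls and are given as a description, while the histone libraries had no part in the choice. The 10 deposited lists together hold 262931 regions.

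SW480 carries the label Dukes' type B and SW620 the label Dukes' type C. The established lines are known to come from the same patient, SW480 from the primary tumour and SW620 from a lymph node metastasis. Both were grown in DMEM with serum and antibiotics and received no treatment, per the labels. Each line contributed 1 library for each of FOXA2, H3K4me2, H3K4me3, H3K27ac and H3K36me3, plus 1 input library that served as the background of the authors' peak calling. The labels mention stable luciferase transfection for cells that were injected into mice, and do not say whether the ChIP-seq cells carried it. With 1 library per antibody and line, no difference has a replicate check and no p-value is given.

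FOXA2 is a forkhead transcription factor of the definitive endoderm and of liver, pancreas and gut epithelium. Forkhead factors of the FOXA class are known as pioneer factors, which can bind their motif on nucleosomes in chromatin that carries no active mark and are also found at active enhancers. Trimethylation of H3K4 is typical of promoters and its dimethylation of promoters and enhancers alike. Acetylation of H3K27 is found at those in use, and H3K36me3 covers the bodies of transcribed genes. Peaks were called promoter-like where they overlapped H3K4me3, enhancer-like where they overlapped H3K27ac without H3K4me3, and H3K4me2 alone where that was the single mark of these 3. Peaks that overlapped none of the 3 active marks in a line were called unmarked in it. Positions are hg19, counted from 1. They could not be tied to genes, because the annotation at hand is on another build.

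The FOXA2 libraries had 19473583 tags in SW480 and 18036456 tags in SW620, per the file headers. The caller required 11 tags per peak in SW480 and 15 in SW620. Of 8976 candidate peaks in SW480, 3651 were removed by comparison with input, and of 19333 candidates in SW620, 6250 were. Tags in peaks made up 0.590% of the SW480 library and 2.25% of the SW620 library. Sharing depends on these thresholds, because a site with a few tags less than required counts as called in the other line alone.

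The shared peaks lay on nearly the same base pairs in the lines. All 236 SW480 peaks are 127 bp wide, and 225 of them lay wholly inside the SW620 peak, which is usually 319 bp wide. The centres were a median of 24.5 bp apart (quartiles 12.8 and 46.2 bp, highest 204 bp), where an overlap of full-width peaks allows up to 223 bp. In 186 pairs the centres lay within 50 bp and in 225 within 100 bp. Each SW480 peak had its own partner, 236 distinct SW620 peaks in all. Over the whole SW480 list, 118 peaks had an SW620 centre less than 25 bp away and 65 had one at 25 to 50 bp. At 100 to 150 bp there were 7 peaks and at 500 to 1000 bp there were 38, or 0.076 per bp of distance against 4.72 per bp in the closest range. The count per bp was thus highest at the shortest distances and was 0.054 from 150 bp to the limit of 223 bp. Past the limit it did not fall steadily, with 0.13 at 400 to 500 bp and 0.039 at 1000 to 2000 bp. In all, 63 SW480 peaks that were not shared had an SW620 centre within 1000 bp.

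The peaks nearest to the limit of the rule were few. Just inside it, the SW480 peak on chromosome 16 from 27150238 to 27150364 overlapped its partner by 19 bp. The next shortest overlaps were 35 bp, on chromosome 7 from 71145248 to 71145374, and 45 bp, on chromosome 11 from 191791 to 191917. Just outside it, the peak on chromosome 12 from 2829887 to 2830013 missed an SW620 peak by 10 bp. Those on chromosome 10 from 56195721 to 56195847 and on chromosome 1 from 249239924 to 249240050 missed by 20 and 32 bp. All 6 were unmarked in both lines.

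The shared peaks lay on active chromatin more often than SW480-alone peaks. H3K4me2 of SW480 was present at 82 of 236 shared peaks, 34.7% (29.0 to 41.0), where 5.61% of the whole SW480 list carried it and 4.22% (3.70 to 4.82) of the 4971 SW480-alone peaks did. H3K27ac of SW480 covered 69 shared peaks, 29.2% (23.8 to 35.3), against 4.47% of the list. H3K4me3 of SW480 covered 19, 8.05% (5.21 to 12.2), against 2.19% of the list. H3K36me3 of SW480 covered 12, 5.08% (2.93 to 8.68), against 2.63% of the list, and its interval reaches below the 2.99% that ends the interval of SW480-alone peaks.

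The histone regions of SW620 gave the same order. H3K4me2 of SW620 was present at 89 shared peaks, 37.7% (31.8 to 44.0), against 5.61% of the SW480 list. H3K27ac covered 53, 22.5% (17.6 to 28.2), against 3.07%. H3K4me3 covered 15, 6.36% (3.89 to 10.2), against 1.73%, and H3K36me3 covered 12, against 2.44%. For the 3 active marks in either line, the lower end of the interval of the shared peaks lay above the upper end of that of the SW480-alone peaks. The same held for H3K36me3 of SW620, at 5.08% (2.93 to 8.68) of shared and 2.31% (1.93 to 2.77) of SW480-alone peaks.

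Compared with the peaks of SW620 alone, the shared peaks differed in their marks. Active marks of SW620 were less frequent at the shared SW620 peaks, at 92 of 236 or 39.0% (33.0 to 45.3), than at SW620-alone peaks, at 55.5% (54.6 to 56.3) of 12136. For H3K4me2 of SW620 the shares were 38.6% (32.6 to 44.9) and 51.9% (51.0 to 52.8), for H3K27ac 22.9% (18.0 to 28.6) and 34.1% (33.2 to 34.9), and for H3K4me3 7.20% (4.55 to 11.2) and 13.2% (12.6 to 13.8). Any active mark of SW480 was present at 41.5% (35.4 to 47.9) of shared and 33.1% (32.2 to 33.9) of SW620-alone peaks, but the single marks did not all follow. For H3K4me2 of SW480 the shares were 34.7% (29.0 to 41.0) and 30.1% (29.3 to 30.9), and for H3K27ac 29.7% (24.2 to 35.8) and 24.2% (23.4 to 24.9), with overlapping intervals. H3K4me3 of SW480 was at 8.90% (5.89 to 13.2) of shared and 13.1% (12.5 to 13.7) of SW620-alone peaks, the same direction as in SW620, again with overlapping intervals. These shares use the SW620 intervals of both groups, so that the width of the peaks does not differ between them.

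**Figure D1:**
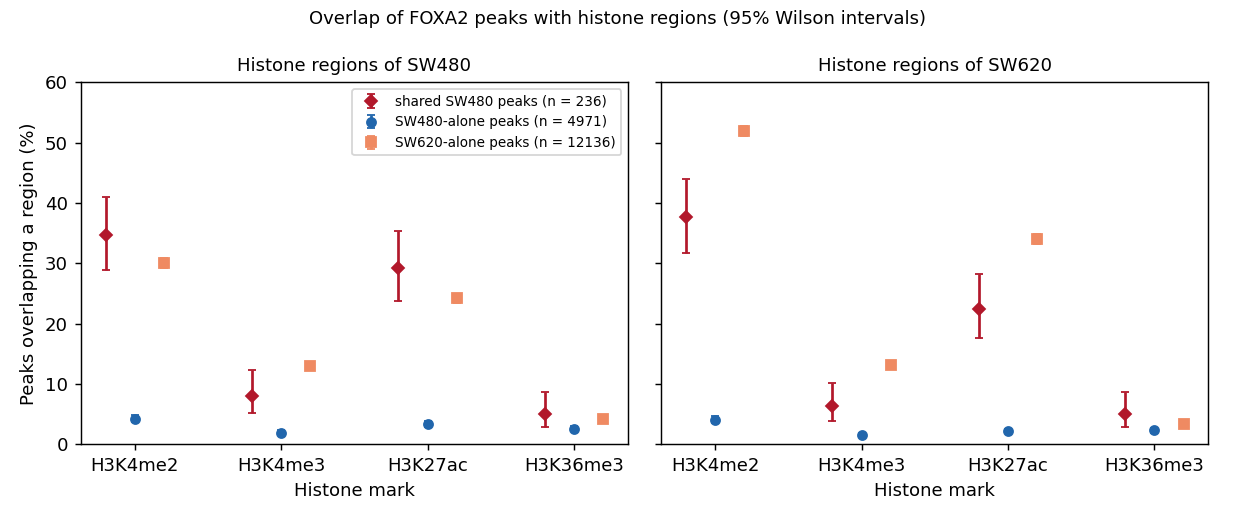
Share of FOXA2 peaks (y axis, percent) that overlapped a region of each histone mark (x axis) called in SW480 (left) and SW620 (right), with 95% Wilson intervals as bars. Shared peaks (diamonds, n = 236) lay above SW480-alone peaks (circles, n = 4971) for each active mark, and below SW620-alone peaks (squares, n = 12136) for the active marks of SW620. Shared peaks are plotted by their SW480 intervals of 127 bp, and SW620-alone peaks by SW620 intervals, usually 319 bp, so the widths differ here.

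Most shared peaks had an active mark in both lines or in neither, as did most peaks of each whole list. An active mark was present in both lines at 69 peaks, 29.2% (23.8 to 35.3), against 4.21% of the SW480 list. It was present in SW620 alone at 22 peaks, 9.32% (6.24 to 13.7), above the 1.86% of the SW480 list. In SW480 alone it was present at 29, 12.3% (8.69 to 17.1), also above the 2.57% of that list. At 116 peaks, 49.2% (42.8 to 55.5), there was none in either line, against 91.4% of the SW480 list. In the SW620 list 30.2% of peaks had an active mark in both lines and 41.9% had none in either. The share marked in both lines was thus close to that of the SW620 list, and the share marked in SW620 alone, 9.75% (6.58 to 14.2) of the SW620 partners, was below the 24.9% (24.2 to 25.7) of that list.

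The share of SW480 peaks that were shared varied with their chromatin. Of the SW480 peaks marked in both lines, 31.5% (25.7 to 37.9) of 219 were shared, of those marked in SW620 alone 22.7% (15.5 to 32.0) of 97, and of those marked in SW480 alone 21.6% (15.5 to 29.4) of 134. Of the 4757 unmarked in both lines, 2.44% (2.04 to 2.92) were shared. By state in SW480, 35.7% (28.3 to 43.8) of 143 enhancer-like peaks were shared, 29.2% (21.02 to 38.9) of 96 with H3K4me2 alone and 16.7% (10.9 to 24.6) of 114 promoter-like peaks. By state in SW620, the share of enhancer-like peaks was 42.9% (33.2 to 53.1) of 91.

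In the SW620 list the shares were smaller and ordered differently. Of SW620 peaks marked in SW480 alone, 7.82% (5.50 to 11.0) of 371 were shared. This compares with 2.22% (1.85 to 2.66) of 5178 unmarked in both lines, 1.84% (1.46 to 2.33) of 3741 marked in both lines and 0.746% (0.498 to 1.12) of 3082 marked in SW620 alone. Neither the last class nor the class unmarked in both lines had an active mark in SW480, and their shares differed. The cause of this order was not tested.

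The state was the same in both lines at 167 of the 236 peaks, 116 of them unmarked and 51 marked. Of these 51, 22 were enhancer-like in both lines, 15 had H3K4me2 alone in both and 14 were promoter-like in both. The promoter-like state of SW480 was either kept in SW620, at 14 of 19 peaks, or enhancer-like there, at 5. No promoter-like peak of SW480 was unmarked in SW620. In the whole SW480 list, 67.5% (58.5 to 75.4) of the 114 peaks on SW480 H3K4me3 were on SW620 H3K4me3 too, near the share kept here. Other pairs of marked states were not counted over the whole lists. The SW480 list had 91.4% of its peaks unmarked in both lines, so an equal state is not particular to the shared peaks. Enhancer-like peaks of SW480 were enhancer-like in SW620 in 22 of 51 cases, had H3K4me2 alone in 10 and were unmarked in 19. Of the 138 peaks unmarked in SW480, 12 had H3K4me2 alone in SW620, 9 were enhancer-like and 1, on chromosome 22 from 38506036 to 38506162, was promoter-like.

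**Figure D2:**
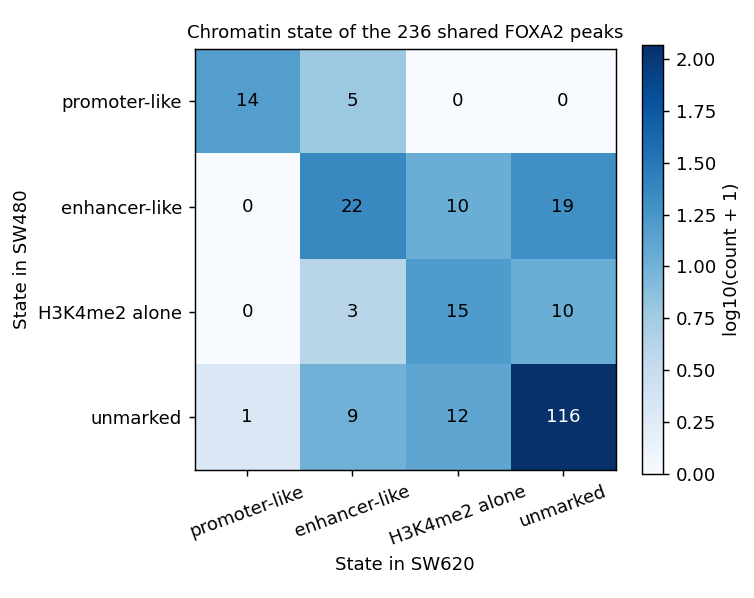
Number of shared FOXA2 peaks by chromatin state in SW480 (rows) and SW620 (columns), shaded by log10(count + 1). The 116 peaks unmarked in both lines form the largest cell, and 19 peaks were enhancer-like in SW480 and unmarked in SW620.

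The 4 classes of shared peaks lay in different parts of the lists. Because the deposited score is 1 for each peak, the order of rows is the one ranking the files give. No source used here says whether it follows the strength of the peaks. The number in each peak identifier, counted per chromosome by the caller, followed the order of rows closely, with a median rank correlation within chromosomes of 0.99 in both lists. Positions are given as a percent of list length, with the first row near 0.

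In the SW480 list the shared peaks stood at a median of 43.6% (quartiles 7.47 and 76.2). They were most frequent in the first part of it. The first 10% of the list held 63, 12.1% (9.57 to 15.2) of its 521 peaks, and the fourth 10% held 11, 2.12% (1.19 to 3.75). The last 10% held 27, 5.19% (3.59 to 7.45), an interval that contains the 4.53% of the whole list, and the second and the sixth 10% held 24 each. No filter on regions known for artefactual signal (a blacklist) was applied here, and no source used here says whether the authors applied one. In the SW620 list they stood at a median of 13.6% (quartiles 4.46 and 48.6), with 101 in the first 10%, 8.16% (6.76 to 9.82) of its 1238 peaks, and 13 in the last. Of the first 10 SW480 peaks 8 were shared, and of the first 10 SW620 peaks 3 were.

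**Figure D3:**
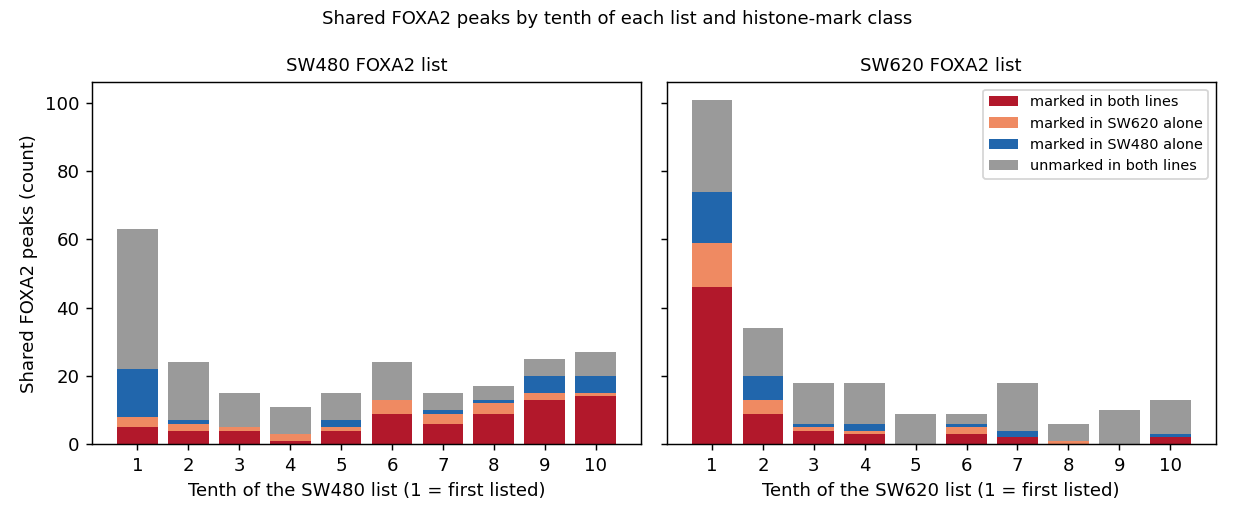
Number of shared FOXA2 peaks (y axis) in each successive 10% of the SW480 list (left) and the SW620 list (right), first listed at the left, coloured by histone-mark class. In the SW480 list the first 10% is mostly unmarked (41 of 63) and the last holds 14 peaks marked in both lines, while 46 of the 101 peaks in the first 10% of the SW620 list were marked in both.

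Peaks marked in both lines were late in the SW480 list and early in the SW620 list. Their median position was 74.2% (quartiles 49.7 and 86.2) in SW480 and 5.42% (quartiles 1.08 and 14.1) in SW620. Of the 69, 46 were in the first 50% of the SW620 list but not of the SW480 list, and 2 had the opposite arrangement. SW480-alone peaks marked in both lines stood at a median of 44.7% of the SW480 list, and SW620-alone peaks marked in both lines at 45.6% of the SW620 list.

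Peaks unmarked in both lines had the opposite order. Their median was 19.6% (quartiles 4.71 and 50.7) in SW480 and 35.9% (quartiles 11.6 and 67.1) in SW620. Of the 116, 58 were in the first 50% of both lists, 26 in that of SW480 only, 16 in that of SW620 only and 16 in neither. Peaks unmarked in both lines that were not shared had medians of 50.7% in the SW480 list and 60.6% in the SW620 list, so that the shared ones were earlier in each.

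Peaks marked in SW620 alone had medians of 55.1% in SW480 and 7.38% in SW620. Those marked in SW480 alone split in the SW480 list, with 14 of 29 in its first 10%, 5 in the ninth 10%, 5 in the last and a median of 13.3%. In the SW620 list their median was 9.69%. Across all 236 peaks the Spearman rank correlation of the positions was -0.06, and within the classes it lay between 0.15 and 0.38. The points share the libraries and the calling threshold, and no p-value is given.

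**Figure D4:**
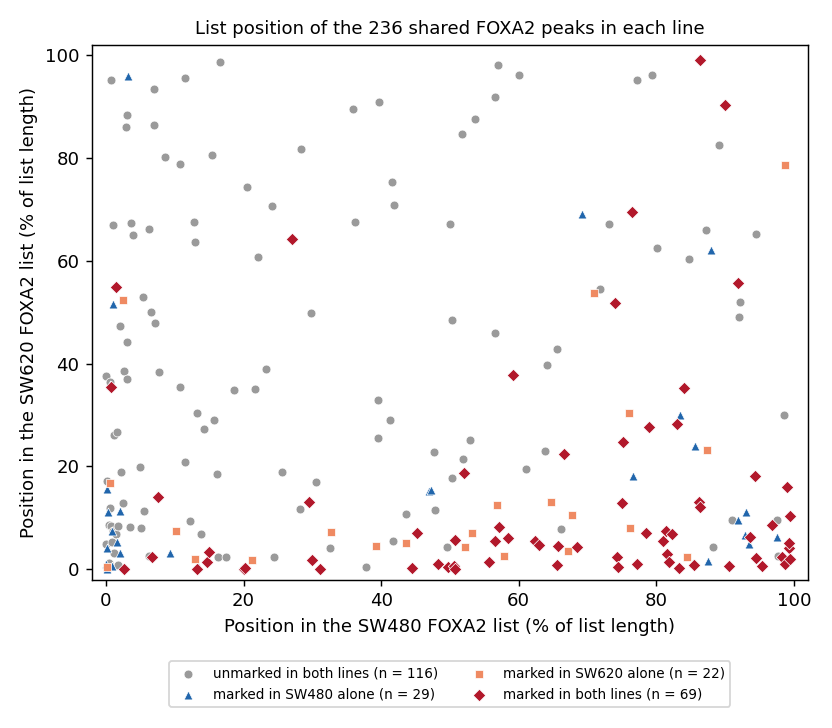
Position of each shared FOXA2 peak in the SW480 list (x axis) and the SW620 list (y axis), in percent of list length with 0 as first listed, by histone-mark class. Peaks marked in both lines (diamonds, n = 69) gather at the lower right, with medians of 74.2% and 5.42%, and unmarked peaks (circles, n = 116) are densest at the left edge.

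The share of marked peaks along each list showed the same arrangement. In the first 10% of the SW480 list, 19 of 63 shared peaks, 30.2% (20.2 to 42.4), had an active mark of SW480, and in the last 10% 19 of 27 had one, 70.4% (51.5 to 84.1). Among SW480-alone peaks the shares were 10.3% and 4.46%. In the first 10% of the SW620 list, 59 of 101 shared peaks, 58.4% (48.7 to 67.5), had an active mark of SW620, against 67.6% of the other peaks there. In the second 10% it was 13 of 34, 38.2% (23.9 to 55.0), against 68.7%.

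Among the shared peaks marked in both lines, 6 had the earliest positions when the later of the 2 positions was ranked. The peak on chromosome 12 from 26922212 to 26922338 was number 133 in SW480 and number 3 in SW620, with centres 13 bp apart. It had H3K4me2 alone in both lines, in regions of 1001 bp in SW480 and 1509 bp in SW620. On chromosome 3, the peak from 58457168 to 58457294, number 766 and number 167, also had H3K4me2 alone in both, in regions of 2083 and 2423 bp. On chromosome 17, that from 17349653 to 17349779, number 686 and number 16, had the same centre in both lines. Its H3K4me2 regions were 3063 bp wide in SW480 and 3101 bp in SW620, and it had H3K27ac in SW620 only, over 1001 bp. H3K4me2 was thus present at these 3 sites in both lines, and H3K27ac at 1 of them in SW620.

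A further 3 of the 6 carried H3K4me3 in both lines or wide acetylation in SW480. The peak on chromosome 21 from 34144187 to 34144313, number 345 in SW480 and 300 in SW620, was promoter-like in both lines, with H3K4me3 over 3483 and 2515 bp and H3K27ac over 3501 and 3057 bp. On chromosome 8, the peak from 144119815 to 144119941, number 783 and number 406, was promoter-like in both lines but had H3K27ac in SW620 only. That on chromosome 1 from 32045760 to 32045886, number 395 and number 1744, lay in an acetylated H3K4me2 region of about 10 kb in SW480. There H3K27ac was 9895 bp and H3K4me2 10115 bp wide, and H3K36me3 covered it as well. In SW620 its H3K4me2 region was 10871 bp wide, with no H3K27ac.

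By the same ranking, the first of the peaks unmarked in both lines was that on chromosome 14 from 84864484 to 84864610, number 23 in SW480 and number 156 in SW620. Its centre was the same in both lines, and the nearest active region was 1189148 bp away in SW480 and 758439 bp away in SW620. The peak on chromosome 2 from 1218274 to 1218400 was number 92 and number 104, with centres 14 bp apart. On chromosome 18, the peak from 22613601 to 22613727 was number 3 in SW480 and number 607 in SW620. For these 3 sites the distance to the nearest active region was lowest at the second, 23076 bp in SW480. On chromosome 10 from 6509239 to 6509365 the positions were 48 and 647, and on chromosome 22 from 25489730 to 25489856 they were 326 and 311. The chromosome 22 site was the nearest of the 6 to an active region, at 16411 bp in SW480 and 15699 bp in SW620. The remaining 1 of the 6 was on chromosome 1 from 10115 to 10241, with positions 60 and 390, near the start of the chromosome.

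For the class marked in SW620 alone, the earliest was on chromosome 12 from 110825089 to 110825215, number 8 in SW480 and number 54 in SW620. It lay in H3K36me3 of both lines, over 10401 bp in SW480 and 32793 bp in SW620, with H3K27ac of 1001 bp in SW620 only and no H3K4me2. The next, on chromosome 14 from 77736073 to 77736199 and on chromosome 7 from 51113483 to 51113609, had H3K4me2 alone in SW620, over 1563 and 2101 bp.

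For the class marked in SW480 alone, the peak on chromosome 7 from 157254135 to 157254261 was number 7 in SW480 and number 4 in SW620. It was the one peak within the first 10 of both lists. It had H3K27ac over 1251 bp in SW480 with no H3K4me2 or H3K4me3, and the nearest active region of SW620 lay 78 bp away. On chromosome 22, the peak from 37724912 to 37725038, number 47 and number 91, had H3K27ac over 3187 bp and H3K4me2 over 1815 bp in SW480. The peak on chromosome 11 from 11268227 to 11268353 was first in the SW480 list and number 123 in SW620. It had H3K27ac over 1507 bp in SW480 alone, with no H3K4me2.

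This acetylation without H3K4 methylation recurred at early SW480 positions. Of the 19 shared peaks that were enhancer-like in SW480 and unmarked in SW620, 13 were in the first 10% of the SW480 list, at positions 1 to 483. Only 3 of the 13 also had H3K4me2 of SW480. Their H3K27ac regions had a median width of 1001 bp, the lowest width in the list, and 8 of the 13 had exactly that width. The other 6, at positions 2442 to 5079, all had H3K4me2, with H3K27ac regions of 1497 to 4653 bp. The first 10% of the SW480 list held 27 peaks with H3K27ac and neither H3K4 mark, and 10 of these were shared. Of all 521 peaks there, 63 were shared. Each later 10% of the list held between 0 and 6 peaks with H3K27ac and neither H3K4 mark. Their early position was thus a feature of the SW480 list and not of the shared peaks alone.

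H3K27ac regions under the peaks marked in both lines were wider than those of the whole lists. They had a median of 3238 bp in SW480 (n = 50) and 3213 bp in SW620 (n = 43), and the medians of the whole lists were 2377 and 2205 bp. For peaks that were promoter-like in SW480 and enhancer-like in SW620 the medians were 5915 and 6231 bp (n = 5). The part of region width in the overlaps was not tested. H3K4me2 of SW480 covered 53 of the 69 shared peaks with SW480 H3K27ac, 76.8% (65.6 to 85.2), near the 74.7% (68.7 to 79.8) of the acetylated peaks of the whole SW480 list. In SW620, 51 of 53 acetylated shared peaks had H3K4me2, 96.2% (87.2 to 99.0), where 86.2% (80.1 to 90.7) of the SW480 list's peaks on SW620 H3K27ac did.

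A mark in a given line was often found in the other as well. Of the shared peaks on SW480 H3K4me2, 63 of 82 were on SW620 H3K4me2, 76.8% (66.6 to 84.6). For SW480-alone peaks this share was 62.9% (56.1 to 69.1), and the intervals overlap. For H3K27ac it was 39 of 69, 56.5% (44.8 to 67.6), against 47.0% (39.5 to 54.6). For H3K4me3 it was 14 of 19, 73.7% (51.2 to 88.2), against 66.3% (56.3 to 75.02). H3K36me3 lay over 17 shared peaks in either line and over 7 in both.

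The 116 peaks unmarked in both lines lay mostly away from marked regions. An active region of either line lay within 1 kb of 7 of them and within 10 kb of 32. Their median distance to the nearest active region was 27.1 kb in SW480 (quartiles 13.01 and 87.9) and 28.3 kb in SW620 (quartiles 11.3 and 121). For SW480-alone peaks unmarked in both lines the medians were 50.1 and 49.5 kb. Within 50 kb, 63.8% (54.7 to 72.0) of the shared and 49.97% (48.5 to 51.4) of the SW480-alone unmarked peaks had an active region of SW480. For active regions of SW620 the shares within 50 kb were 58.6% (49.5 to 67.2) and 50.2% (48.8 to 51.7), with overlapping intervals. Within 10 kb the shares for SW480 regions were 19.0% (12.9 to 27.05) and 18.3% (17.2 to 19.5).

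Few shared peaks lay close to another, and 236 peaks over 24 chromosomes leave room for few close pairs. Whether they were more or less clustered than scattered positions was not tested. None of the 236 had another shared peak within 10 kb, and 6 had one within 100 kb. In the whole SW480 list 7.84% of peaks had another SW480 peak within 10 kb and 36.1% within 100 kb. That list is denser, with 5207 peaks against 236, so these shares cannot be compared directly. A count of 0 of 236 allows a share of up to 1.27% when 3 peaks are taken as its limit, and up to 1.60% by the Wilson interval. The median distance to the next shared peak was 3.29 Mb. The closest pair lay 17.6 kb apart on chromosome 8, at 144119815 to 144119941 and 144137419 to 144137545, both marked in both lines. The next closest pair, 77.7 kb apart on chromosome 2, joined an unmarked peak and a peak marked in SW480 alone, and the pair 83.4 kb apart on chromosome 10 was unmarked in both lines.

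Peaks of the lists at large did lie close to them. Another SW480 peak was within 10 kb of 18 shared peaks, 7.63% (4.88 to 11.7), against 7.84% of the SW480 list. Another SW620 peak was within 10 kb of 45, 19.1% (14.6 to 24.6), against 23.1% (22.3 to 23.8) in the SW620 list. Both shares are near those of the lists. By class, another SW620 peak was within 10 kb of 27 of the 69 peaks marked in both lines, 39.1% (28.5 to 50.9), and of 13 of the 116 unmarked ones, 11.2% (6.67 to 18.2). For SW480 neighbours the order was the reverse. Another SW480 peak was within 10 kb of 2 of the 69, 2.90% (0.799 to 9.97), and of 13 of the 116, 11.2% (6.67 to 18.2), with overlapping intervals. Shares by class over the whole lists were not computed. The peaks with most other SW620 peaks within 100 kb were on chromosome 16 from 33983218, with 13, and on chromosome Y from 10042984, with 10. Both were unmarked. Next came a peak on chromosome 9 from 97684697, marked in both lines, also with 10.

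Each chromosome held at least 1 shared peak. The 1 on chromosome Y lay 3285336 bp from the nearest active region of SW480, with 10 other SW620 peaks within 100 kb. Whether it reflects FOXA2 binding was not tested. Chromosomes 2 and 11 held 21 each, chromosome 7 held 20 and chromosome 17 held 16. Relative to their SW480 peaks, chromosome 17 had the highest share, 11.0% (6.86 to 17.1) of 146, followed by chromosome 22 with 10.0% (4.93 to 19.2) of 70, chromosome 21 with 9.64% (4.97 to 17.9) of 83 and chromosome 11 with 8.54% (5.65 to 12.7) of 246. The lowest were chromosome X with 1.40% (0.545 to 3.54) of 286 and chromosome 19 with 1.69% (0.575 to 4.84) of 178. For these chromosomes other than 19, and for chromosome 4 with 2.06% (0.948 to 4.42), the interval leaves out the 4.53% of the whole list. With 24 chromosomes compared, some intervals may leave it out through counting error.

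Relative to the SW620 peaks, of which 1.91% were shared in the whole list, chromosome 18 had 6 of 124, 4.84% (2.24 to 10.2), and chromosome 21 had 8 of 200, 4.00% (2.04 to 7.69). Chromosome Y had 1 of 18, with an interval from 0.988% to 25.8%. Class counts per chromosome were small, and the class shares of the whole lists on each chromosome were not computed. The following counts were picked from 24 chromosomes, and whether the classes differed between chromosomes was not tested. On chromosome 8, 7 of 10 shared peaks were marked in both lines, and on chromosome 20, 6 of 10. On chromosome 4 all 6 were unmarked in both lines, and chromosome 18 had 4 unmarked and 2 marked in SW480 alone. Chromosome 2 had 13 unmarked of 21.

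**Figure D5:**
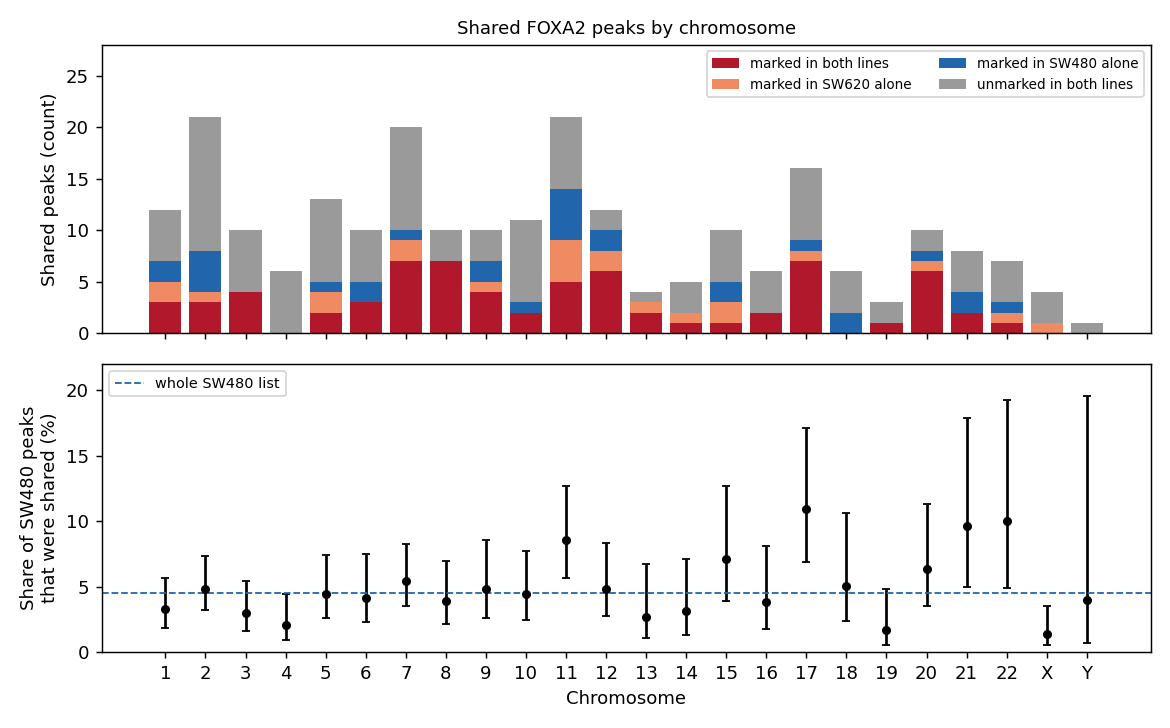
Shared FOXA2 peaks per chromosome, as counts by histone-mark class (top) and as a share of the SW480 peaks of each chromosome with 95% Wilson intervals (bottom, dashed line at the 4.53% of the whole list). Chromosome 17 has the highest share, 11.0%, and chromosome X the lowest, 1.40%.

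Positions near the ends of chromosomes were compared after the data were seen. Within 200 kb of the first base of a chromosome or of its last called region lay 10 of the 236 shared peaks, 4.24% (2.32 to 7.62), against 0.864% of the SW480 list and 0.704% (0.507 to 0.978) of SW480-alone peaks. In the SW620 list the share was 0.566% (0.448 to 0.714). Of these 10, 9 were unmarked in both lines. On chromosomes 1, 5, 7 and 18 the shared peak began at 10115, 10418, 10028 and 9987, and hg19 chromosomes are known to begin with an unsequenced stretch. On chromosome 15 it began at 102521210, on chromosome 4 at 191044036, on chromosome 20 at 62918645, on chromosome 2 at 242974046 and on chromosome 11 at 191791. The site on chromosome 12 from 95559 to 95685, number 83 in SW480 and number 650 in SW620, was the one of the 10 with an active mark, H3K27ac of SW480. Without these 10 peaks no share on a mark left its reported interval. Removing 10 of 236 peaks, 9 of them with no active mark, could move the shares on active marks only a little.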

How the data were processed

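ChIP-seq of 5 antibodies in SW480 and SW620 gave 10 lists of regions, 1 per library. The authors called FOXA2 peaks with HOMER findPeaks in factor style against the input of the same line, with minimum enrichments of 2-fold over input and local background and a false discovery rate of 0.001, and centred them, per the file headers. Histone regions were called with a size of 1000 bp and 4-fold minima, per the file headers. The submitters' processing notes name hg19, and no source used here names the aligner. The deposited score is 1 in every row, so only the deposited start and end positions, in bp, and the row order were used.

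Groups came from the sample titles. Overlaps of at least 1 bp were found in Python 3.11.15 (pandas 2.3.3, numpy 2.4.6), checked against bedtools 2.31.1 (236 shared peaks in both) and tested on simulated data: 100% of 3000 simulated peaks were assigned correctly. Wilson intervals came from scipy 1.17.1 and figures from matplotlib 3.10.9. The members, classes and lists were chosen with earlier results of these data known. Peaks named by position were taken by a rule: the lowest of the later list position per class (6, 6, 3 and 3 peaks), and 3 peaks on each side of the overlap limit. Other named positions were chosen after their values were seen. Alternatives covered the overlap rule, mark distance, list length, clustering distance and chromosomes. The forkhead motif was not analysed here.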

Additional observations from a re-analysis of the deposited data

How the results depend on the processing

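The number of shared peaks stayed within 1.5 times the reported value under each alternative: 233 with an overlap of 50% of the SW480 peak, 225 with centres within 100 bp, 231 with autosomes only, 228 with SW620 peaks at the SW480 width and 171 with equal numbers of first-listed peaks. Without the first 10% of the SW480 list, an alternative chosen after the data were seen, the share on H3K4me2 was 42.2% in SW480 and 47.4% in SW620, and the share on SW620 H3K36me3 was 2.89%. By construction, the median list positions differed when the unmarked peaks alone (19.6% in SW480 and 35.9% in SW620) or the peaks marked in both lines alone (74.2% and 5.42%) were used. Within 100 kb, 2.54% of shared peaks had another close by. The other 84 recomputed values stayed within the reported interval or within 1.5 times the reported count. Of these, the 9 with 1 peak kept per 10 kb cluster and the 1 for a distance of 1 kb could not change. No shared peak had another within 10 kb. No list of signal per peak was used, so peak heights were not compared. No paired analysis was possible because each group has 1 library.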

Other observations

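On chromosome 8, 2 shared peaks marked in both lines were among the first 15 of the SW620 list. The first, from 129567313 to 129567439, was number 6 in SW620 and number 1042 in SW480, with 8 other SW620 peaks and 1 other SW480 peak within 100 kb. It was promoter-like in SW480 and enhancer-like in SW620, in H3K27ac regions of 5915 and 6231 bp. The second, from 129189173 to 129189299, was number 15 in SW620 and number 1621 in SW480. It had H3K27ac over 3323 bp in SW480 and H3K4me2 alone in SW620. On chromosome 20, the shared peaks at 4850309, 13243474 and 21115696, also marked in both lines, were numbers 78, 124 and 32 in SW620 and numbers 4963, 2510 and 2314 in SW480. All these positions were picked after their values were seen.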
